A study of Homo sapiens with 5 samples.

Results

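The genes described are 10 members of the bone morphogenetic protein (BMP) and transforming growth factor beta (TGF-beta) pathway, found by symbol in the table of raw counts, which holds 57992 genes. They are the ligand genes BMP4, BMP7, TGFB1 and TGFB2, the inhibitory SMAD genes SMAD6 and SMAD7, and ID1, ID2, ID3 and ID4. Each symbol matched 1 row, and all 10 passed the filter on low counts. Expression was measured by poly(A) RNA-seq in Ishikawa cells, a human cell line derived from an endometrioid tumour of the endometrium. In 2 libraries the cells shared a transwell with mature adipocytes for 3 days, across a membrane with 0.4 µm pores, in the presence of EX527, an inhibitor of the deacetylase SIRT1 whose dose the labels do not give. Co-culture without the inhibitor gave 2 libraries, and Ishikawa cells grown alone gave 1. The labels name no vehicle, no monoculture with EX527, and neither the species nor the line of the adipocytes. They do not say whether replicates came from separate cultures, so p-values speak only of how far these libraries vary, a variation that may be technical.

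BMPs and TGF-betas are secreted dimers that bind pairs of serine/threonine kinase receptors. Receptors for BMPs phosphorylate SMAD1, SMAD5 and SMAD9, receptors for TGF-betas phosphorylate SMAD2 and SMAD3, and both sets enter the nucleus with SMAD4. ID genes are direct BMP targets in many cell types, and their products are helix-loop-helix proteins with no DNA-binding region that hold E proteins and related bHLH factors away from DNA. SMAD6 and SMAD7 are induced by the pathway and inhibit it. In the endometrium BMP signalling takes part in the differentiation of stromal cells, and TGF-beta restrains the growth of normal epithelial cells.

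Libraries held 45653845 to 52269963 counted reads, and levels are given as CPM, the reads of a gene relative to those of its library after TMM scaling, where 3 reads equal 0.053 to 0.0692 CPM. The pair with EX527 differed far more within itself than the pair without it. The SD of the log2 difference between replicates was 0.605 with EX527 and 0.112 without, over 11232 well-read genes. EX527 replicate 1 stood apart, with 33325 genes at 10 reads or more, against 26022 to 27103 in each of the others. Results are therefore given with all 5 libraries and again without that library, in which case the co-culture pair alone sets the spread. With either EX527 library left out, standard errors and p-values take no account of the spread between the EX527 libraries. Genes called in such fits are therefore no measure of an EX527 effect. The lone monoculture library adds no spread either, so they are no measure of a difference from monoculture. SIRT1 itself was read at 26.2 and 29.7 CPM with EX527, 30.3 and 32.9 CPM in co-culture and 42.7 CPM in monoculture. An inhibitor of the protein need not alter its mRNA, so this checks no label. The epithelial markers EPCAM, CDH1, KRT8, KRT18, KRT19, PAX8, SOX17 and ESR1 were all read in every library.

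Co-culture with EX527 was first set against co-culture without it, which asks what the inhibitor altered in cells that share medium with adipocytes. ID3 and ID4 were 9.43-fold and 7.29-fold higher with EX527, BMP4 was 4.39-fold higher, and BMP7 was higher from a level close to the detection floor. SMAD6 was 2.08-fold lower, and ID1, TGFB1 and TGFB2 were lower by smaller factors. ID2 and SMAD7 overlapped between both groups. The libraries of both groups did not overlap for 8 of 10 genes, 4 above and 4 below, where 55.0% of all 34658 genes tested did not overlap, 28.3% above and 26.8% below. Of the 10 genes 4 were both above without overlap and fitted at 4-fold or more, as were 11.2% of all genes tested. With all 5 libraries the edgeR quasi-likelihood test called none of the 10 genes, and it called 0 of 34658 genes (0%). It had 6 of the 10 and 19.3% of all genes under an unadjusted p of 0.05, and the DESeq2 Wald test called 5 of the 10 (4 higher, 1 lower) and 11.4% of the 30267 genes that it gave an adjusted p.

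**Figure D1:**
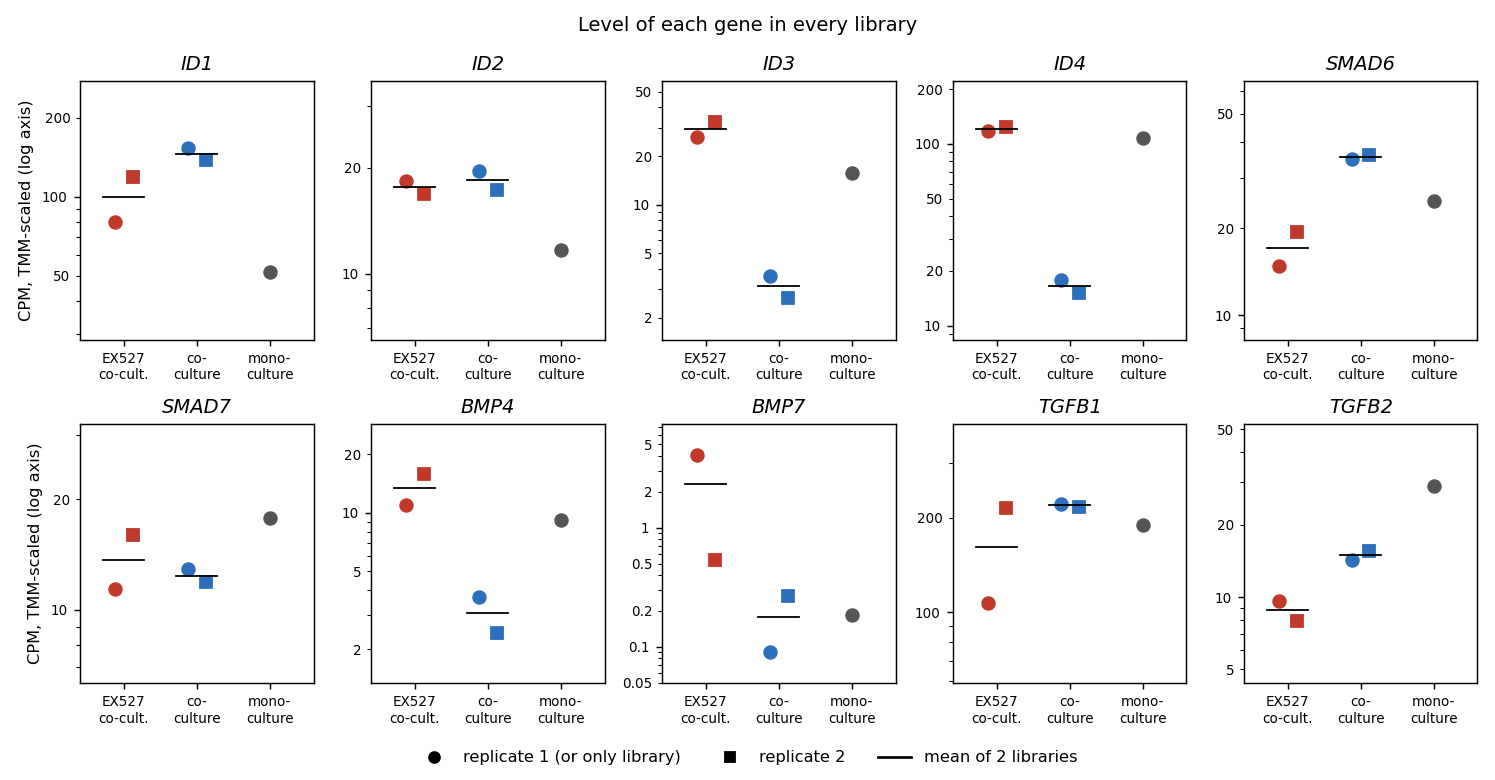
CPM (TMM-scaled, log axis) of each gene in every library of EX527 co-culture, co-culture and monoculture. Points are libraries and black lines are means of 2 libraries. ID3, ID4 and BMP4 stand low in both co-culture libraries and higher in the other 3, while ID1 is highest in co-culture.

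Among the ligands, BMP4, a BMP that acts through SMAD1, SMAD5 and SMAD9, was read at 11 and 15.8 CPM with EX527, at 3.69 and 2.42 CPM in co-culture, with 9.20 CPM in monoculture. Both co-culture libraries were below the other 3. EX527 over co-culture gave a log2 fold change of 2.13 (SE 0.36; edgeR adjusted p = 0.102). It was 2.39 without EX527 replicate 1 (SE 0.18). With all libraries, 105 of the 16029 genes whose mean log2 CPM was 2 or more were fitted as high or higher, BMP4 included. BMP4 lies on chromosome 14 (53949736 to 53958761, minus strand, GRCh38, 4 exons in its MANE Select transcript). Its exons share 506 bases with an antisense RNA gene of GENCODE 44 that the counts do not list.

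BMP7, a relative of BMP4 with the same SMADs, was close to silent outside 1 library. It had 232 and 25 reads with EX527, 4 and 13 reads in co-culture and 8 reads in monoculture, or 4.10 and 0.532 CPM, 0.0899 and 0.267 CPM, and 0.184 CPM. EX527 replicate 1 held most of its reads, and the other 4 libraries lay within 0.0899 to 0.532 CPM. The log2 fold change was 3.70 with all libraries (SE 1.3, edgeR adjusted p = 0.23) and 1.54 without EX527 replicate 1 (SE 0.72, edgeR adjusted p = 0.069).

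TGFB1, the most abundant of the 4 ligands, followed the same library in the other direction. It was read at 107 and 215 CPM with EX527, at 221 and 217 CPM in co-culture, with 190 CPM in monoculture. EX527 replicate 2 lay just under the co-culture pair, while replicate 1 was far below every other library. With all libraries it had a log2 fold change of -0.45 (SE 0.36, edgeR adjusted p = 0.468), and -0.02 without EX527 replicate 1 (SE 0.081, edgeR adjusted p = 0.859). TGFB1 exons overlap 215 bases of HNRNPUL1 on the opposite strand, a gene with 60.1% to 107% as many reads as TGFB1, and the counting is not stated to use strand.

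TGFB2, an isoform that binds its receptors with help from the co-receptor TGFBR3, was read at 9.67 and 7.92 CPM with EX527, at 14.3 and 15.6 CPM in co-culture, with 29.1 CPM in monoculture. The 3 groups did not overlap, and monoculture was highest. Between EX527 and co-culture its log2 fold change was -0.76 (SE 0.23, edgeR adjusted p = 0.204), and -0.91 without EX527 replicate 1 (SE 0.15). TGFB2 contains the whole of TGFB2-OT1 on the same strand, whose reads equalled 20.2% to 46.4% of those of TGFB2.

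The ID genes divided by member. ID3 lies on chromosome 1 (23557926 to 23559501, minus strand), ID4 on chromosome 6 (19837370 to 19842197, plus strand), ID1 on chromosome 20 (31605283 to 31606515, plus strand) and ID2 on chromosome 2 (8678845 to 8684461, plus strand), all on GRCh38 with GENCODE 44. The 250 bases before the RefSeq start of each ID gene are printed here because ID3 and ID4 differed between groups in one direction and ID1 in the other. Whether motifs in these windows bear on those differences was not tested, and bases further upstream were not searched. Capitals mark GGAGCC on either strand, a SMAD1/5 site variant, and CAGAC on either strand, the core of the SMAD-binding element. The windows of ID1, ID2, ID3 and ID4 are, in turn, chr20:31605039-31605288 (plus), chr2:8681806-8682055 (plus), chr1:23559502-23559751 (minus) and chr6:19837120-19837369 (plus), from RefSeq on GRCh38.p14.
ID1: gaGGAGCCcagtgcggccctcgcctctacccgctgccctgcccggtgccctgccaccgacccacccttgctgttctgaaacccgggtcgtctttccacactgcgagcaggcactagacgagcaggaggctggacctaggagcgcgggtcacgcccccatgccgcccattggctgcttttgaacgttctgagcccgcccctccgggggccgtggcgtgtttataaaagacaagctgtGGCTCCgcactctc
ID2: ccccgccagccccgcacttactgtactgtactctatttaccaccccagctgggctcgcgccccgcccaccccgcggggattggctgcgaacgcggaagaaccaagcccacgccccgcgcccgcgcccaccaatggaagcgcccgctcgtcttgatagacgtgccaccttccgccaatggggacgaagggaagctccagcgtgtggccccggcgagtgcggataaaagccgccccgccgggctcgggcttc
ID3: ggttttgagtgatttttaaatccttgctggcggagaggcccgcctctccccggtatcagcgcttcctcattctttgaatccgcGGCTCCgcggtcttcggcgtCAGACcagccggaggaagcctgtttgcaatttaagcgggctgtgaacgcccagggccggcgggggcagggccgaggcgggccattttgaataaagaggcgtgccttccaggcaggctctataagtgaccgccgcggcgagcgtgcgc
ID4: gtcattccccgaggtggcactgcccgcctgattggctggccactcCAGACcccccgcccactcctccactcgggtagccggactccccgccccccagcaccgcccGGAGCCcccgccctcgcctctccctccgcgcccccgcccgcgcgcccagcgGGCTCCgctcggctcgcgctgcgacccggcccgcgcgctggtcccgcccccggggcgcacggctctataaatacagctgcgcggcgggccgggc
GGAGCC occurred 2 times in the ID1 and ID4 windows and 1 time in that of ID3, and CAGAC occurred 1 time in the windows of ID3 and ID4. Neither was in the ID2 window. GGCGCC, the palindromic GC-rich SMAD1/5 site, and the E-box CACGTG were also searched and were in none of the 4. Of all 35116 windows of this length, 30.6% held GGAGCC, 38% held CAGAC, 16.4% held GGCGCC and 6.34% held CACGTG. No 2 matches overlapped in the 4 windows. RefSeq windows were matched for 9 of the 10 genes, all but BMP7. BMP4 has 3 listed starts, of which 1 window held GGCGCC together with CAGAC, 1 held every motif but GGCGCC, and 1 held none of the 4. The TGFB2 window held CAGAC 2 times and CACGTG 1 time, and 1 match of each overlapped. GGAGCC occurred 3 times in the SMAD6 window and 2 times in that of TGFB1. Of the 3 SMAD7 windows 1 held CAGAC 2 times, 1 held it 1 time and 1 held GGAGCC.

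ID3, which in other tissues takes part in lymphocyte and vessel development, was read at 26.4 and 32.4 CPM with EX527, at 3.62 and 2.63 CPM in co-culture, with 15.7 CPM in monoculture. Both EX527 libraries were above all others and both co-culture libraries below. ID3 had a log2 fold change of 3.24 with EX527 (SE 0.29; edgeR adjusted p = 0.0768), and 18 of 16029 genes were fitted as high or higher, ID3 included. Without EX527 replicate 1 the log2 fold change was 3.39 (SE 0.15), and without replicate 2 it was 3.13 (SE 0.16).

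ID4, which has been studied mainly in neural and mammary cells, was read at 117 and 123 CPM with EX527, at 17.8 and 15.1 CPM in co-culture, with 107 CPM in monoculture. The EX527 and monoculture libraries lay close together, and the co-culture pair was far below them. ID4 had a log2 fold change of 2.87 (SE 0.21, edgeR adjusted p = 0.0748, no gene in that fit had a smaller one), with 34 of 16029 genes as high or higher. The log2 fold change was 2.91 without EX527 replicate 1 (SE 0.093) and 2.87 without replicate 2 (SE 0.097).

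ID1, the ID gene most used as a BMP readout, was read at 80.0 and 119 CPM with EX527, at 153 and 138 CPM in co-culture, with 51.4 CPM in monoculture. Its order ran opposite to that of ID3 and ID4 between the groups with and without EX527. Its log2 fold change was -0.55 (SE 0.25, edgeR adjusted p = 0.303) and -0.28 without EX527 replicate 1 (SE 0.085). The 3 genes whose centred log2 CPM lay nearest to that of ID1 over the 5 libraries, of 16020 compared, were ILDR1, MUC1 and FAM86C1, with a root-mean-square difference of 0.0428, 0.0444 and 0.0501.

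ID2 stayed near 18.3 and 16.9 CPM with EX527, against 19.6 and 17.3 CPM in co-culture and 11.7 CPM in monoculture. The libraries with and without EX527 overlapped. ID2 had a log2 fold change of -0.06 (SE 0.21, edgeR adjusted p = 0.868), and it was 0.22 with scaling by library size alone, which moved the median of all genes from 0.15 to 0.42. ID2 shares 145 exon bases with its antisense gene ID2-AS1, whose reads equalled 21% to 38% of those of ID2.

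The inhibitory SMADs also differed from each other. SMAD6, which mainly inhibits BMP receptors, was read at 14.8 and 19.4 CPM with EX527, at 34.8 and 36.1 CPM in co-culture, with 24.8 CPM in monoculture. Monoculture lay between both other groups, which did not overlap. SMAD6 had a log2 fold change of -1.05 with EX527 (SE 0.23, edgeR adjusted p = 0.14) and -0.86 without EX527 replicate 1 (SE 0.11). By the DESeq2 Wald test it was -1.01 with all libraries (adjusted p = 0.0248). SMAD7, which inhibits both receptor branches, was read at 11.4 and 16.0 CPM with EX527, at 12.9 and 11.9 CPM in co-culture, with 17.8 CPM in monoculture. Both EX527 libraries lay on either side of the co-culture pair. Its log2 fold change was 0.14 (SE 0.26, edgeR adjusted p = 0.753), 0.38 without EX527 replicate 1 and -0.07 without replicate 2.

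Without EX527 replicate 1, edgeR called 7 of the 10 genes, 4 higher (ID3, ID4, BMP4, SMAD7) and 3 lower (ID1, SMAD6, TGFB2), where it called 44.2% of all genes tested, 21.7% higher and 22.5% lower. Without replicate 2 it called 8, 4 higher and 4 lower, where it called 70.2% of all genes, 39.1% higher and 31.1% lower. Leaving out either of the co-culture libraries, it called none of the 10 and 0% of all genes, and the smallest adjusted p among the 10 was 0.888.

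**Figure D2:**
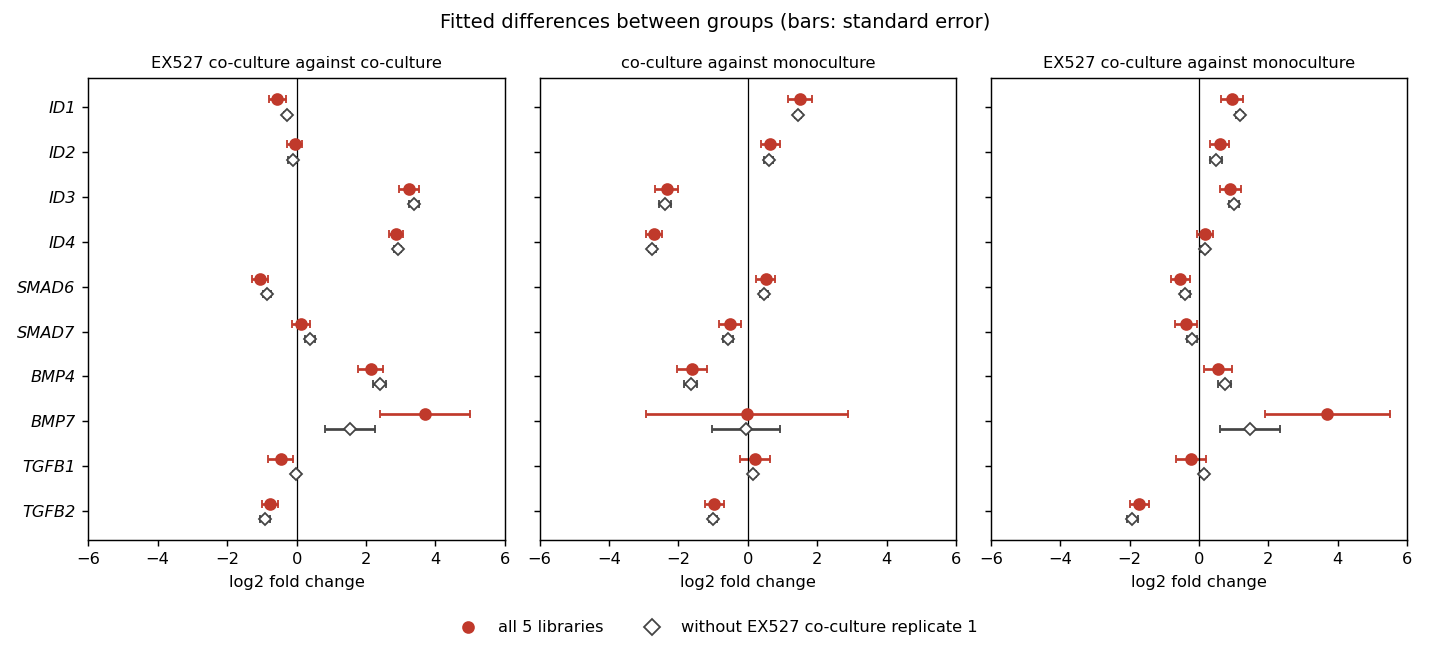
Fitted log2 fold changes of the 10 genes in the 3 comparisons, with standard errors, from all 5 libraries (filled circles) and without EX527 co-culture replicate 1 (open diamonds). ID3, ID4 and BMP4 lie right of 0 for EX527 against co-culture and left of 0 for co-culture against monoculture, and in both comparisons with EX527 the value of BMP7 moves most when that library is left out.

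To compare levels between genes, CPM was divided by the length of each MANE Select transcript. On this scale ID1 ranked first of the 10 in both EX527 libraries and in both co-culture libraries, at 81.4 and 121 CPM per kb with EX527 and 156 and 140 CPM per kb in co-culture. In monoculture TGFB1 ranked first at 68.3 CPM per kb, with ID1 second at 52.3 CPM per kb. ID4 was at 30.2 and 31.8 CPM per kb with EX527, at 4.6 and 3.9 CPM per kb in co-culture and at 27.6 CPM per kb in monoculture, and ID3 at 27.8 and 34.1, 3.81 and 2.77, and 16.5 CPM per kb. ID3 and ID4 changed places between both EX527 libraries, so their order there was within the spread. BMP7 ranked last in every library.

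The summed level of the 4 ID genes per length was 153 and 200 CPM per kb with EX527, 179 and 160 CPM per kb in co-culture and 105 CPM per kb in monoculture, so the groups with and without EX527 overlapped in the sum. Its makeup did not overlap. ID1 made up 53% and 60.5% of the summed level with EX527, 86.9% and 87.5% in co-culture and 49.6% in monoculture. ID4 made up 19.7% and 15.9% with EX527, 2.57% and 2.43% in co-culture and 26.2% in monoculture. Of the reads of all 4 genes, not scaled to length, ID3 and ID4 together held 59.3% (95% Wilson interval 58.4% to 60.1%) and 53.4% (52.6% to 54.2%) with EX527, 11.1% (10.4% to 11.8%) and 10.3% (9.63% to 10.9%) in co-culture, and 66% (65% to 67%) in monoculture. These intervals and the floor of 3 reads cover counting error only.

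**Figure D3:**
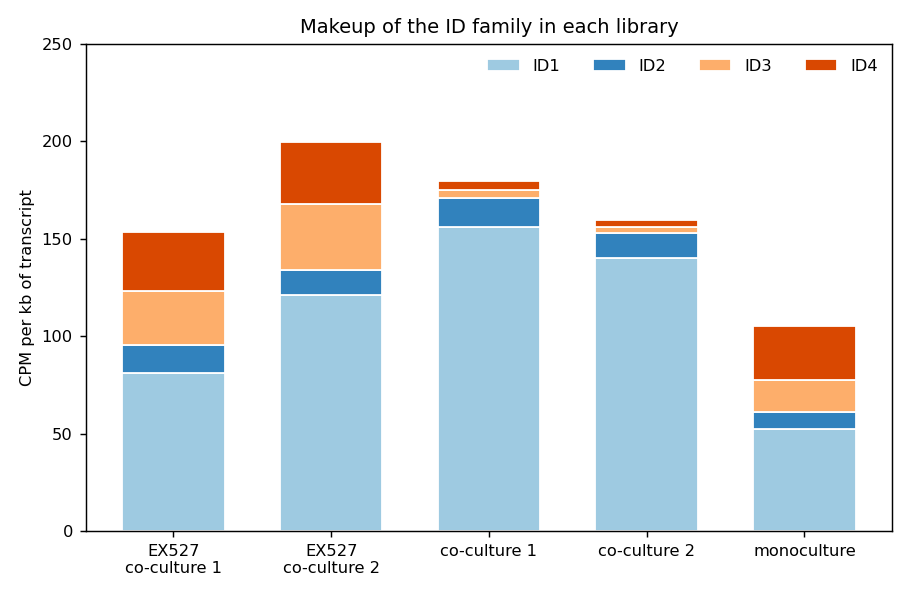
Stacked levels of ID1, ID2, ID3 and ID4 in each library, in CPM per kb of transcript. The full bars run from 105 in monoculture to 200 in EX527 co-culture replicate 2, and the orange parts (ID3 and ID4) are thin only in both co-culture libraries without EX527.

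Co-culture was then set against monoculture, which asks what adipocytes alter in the cancer cells. This comparison uses the same co-culture libraries as the first, so its values are not independent of it, and the lone monoculture library has no spread of its own. ID4 was 6.49-fold and ID3 5.04-fold lower in co-culture, BMP4 was 3.02-fold lower and TGFB2 1.95-fold lower, while ID1 was 2.82-fold higher. The log2 fold changes were -2.70 for ID4 (SE 0.23, edgeR adjusted p = 0.118), -2.33 for ID3 (SE 0.33, edgeR adjusted p = 0.121), -1.60 for BMP4 (SE 0.43, edgeR adjusted p = 0.189) and 1.5 for ID1 (SE 0.34, edgeR adjusted p = 0.155). Fitted changes reached 4-fold in 2 of the 10 genes, as in 13.7% of all genes. EdgeR called none of the 10 with all libraries, and 0% of all genes. It had 5 of the 10 and 15.9% of all genes under an unadjusted p of 0.05, and the DESeq2 Wald test called 4 (ID1 higher, and ID3, ID4 and BMP4 lower), where it called 12.1% of the 20232 genes that it gave an adjusted p, 4.69% higher and 7.43% lower. BMP7 was not among those 20232.

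Without EX527 replicate 1, edgeR called 8 of the 10 genes, 3 higher and 5 lower, against 53.9% of all genes, 26.9% higher and 27.1% lower. Spread in that fit came from the co-culture pair alone, so genes called there are no measure of a co-culture effect. ID2 was then higher in co-culture at 0.60 (SE 0.14) and SMAD6 at 0.47 (SE 0.11), and SMAD7 was lower at -0.57 (SE 0.14). TGFB2 was lower at -1.01 (SE 0.12). BMP7 and TGFB1 were not called in that fit, at -0.06 (SE 0.98) and 0.16 (SE 0.082). With either co-culture library left out none of the 10 passed, and the smallest adjusted p was 1.

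EX527 co-culture against monoculture asks how far the treated co-culture lay from cells that had met neither adipocytes nor inhibitor. It shares libraries with both comparisons above. ID4 differed by 0.17 on the log2 scale (SE 0.23, edgeR adjusted p = 0.759), BMP4 by 0.54 (SE 0.40, edgeR adjusted p = 0.624) and ID3 by 0.90 (SE 0.31, edgeR adjusted p = 0.614). ID1 was 1.93-fold higher with EX527, at 0.95 (SE 0.33, edgeR adjusted p = 0.614), and TGFB2 was 3.30-fold lower, at -1.72 (SE 0.27, edgeR adjusted p = 0.614). Of 16029 genes 13 were fitted as low as TGFB2 or lower, TGFB2 included. No gene of the 10 and 0% of all genes were called by edgeR with all libraries, with 3 of the 10 and 7.36% of all genes under an unadjusted p of 0.05. DESeq2 called TGFB2 alone of the 10 (-1.76, adjusted p = 0.0303), where it called 0.279% of the 21144 genes with an adjusted p. Without EX527 replicate 1 edgeR called 6 of the 10, 4 higher and 2 lower, against 33.8% of all genes, 14.7% higher and 19.1% lower, and ID4 was not among them (0.17, SE 0.10, edgeR adjusted p = 0.202).

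Other genes of the pathway were taken from lists by role, and none of them was called by edgeR with all 5 libraries in any comparison. Among 21 further ligands the median log2 fold change with EX527 was 0.30, beside 0.15 over all genes, and it ran from 0.09 without EX527 replicate 2 to 1.16 without co-culture replicate 1. DESeq2 called 5 of the 21 higher and 2 lower, where it called 6.65% of the 30267 genes with an adjusted p higher and 4.73% lower. Those shares also stand behind the DESeq2 counts for EX527 against co-culture in the lists that follow. The stress-induced ligand GDF15 was read at 348 and 563 CPM with EX527, 101 and 86.0 CPM in co-culture and 431 CPM in monoculture (log2 fold change 2.28 for EX527 against co-culture, SE 0.30, edgeR adjusted p = 0.0824). BMP6, which in liver induces hepcidin, was at 7.84 and 8.35 CPM with EX527, 2.18 and 2.50 CPM in co-culture and 13.5 CPM in monoculture. AMH, which signals through the BMP SMADs in the gonads, ran the other way, at 5.44 and 10.1 CPM with EX527, 33.0 and 29.3 CPM in co-culture and 6.52 CPM in monoculture. The genes named from each list were picked among those whose libraries did not overlap between both groups, which 55.0% of all genes met, so their separation is no result.

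Of 14 receptors DESeq2 called 1 higher and 1 lower with EX527, close to the 6.65% and 4.73% of all genes. Their median was -0.11, and 0.08 without EX527 replicate 2. TGFBR2, the type II TGF-beta receptor, was lower at 13.2 and 30.9 CPM with EX527, against 61.5 and 65.6 CPM in co-culture, with 35.7 CPM in monoculture. The activin receptor ACVR2A was at 28.8 and 26.2 CPM with EX527 and 16.5 and 19.3 CPM in co-culture, and ACVR2B at 9.92 and 18.4 CPM with EX527 and 21.3 and 21.9 CPM in co-culture. The 6 receptor-activated and common SMADs had a median of 0.18, and of -0.07 without EX527 replicate 2. DESeq2 called 1 of them, SMAD9, which was read at 22.5 and 30.4 CPM with EX527, 6.97 and 7.29 CPM in co-culture and 17.5 CPM in monoculture (log2 fold change 1.89, SE 0.26, edgeR adjusted p = 0.0824). SMAD2 was at 60.5 and 77.8 CPM with EX527 and 80.8 and 82.5 CPM in co-culture. All 6 of these SMADs had a negative log2 fold change in co-culture against the lone monoculture library (median -0.70, beside 0.05 over all genes). DESeq2 called 3 of them lower there, SMAD4, SMAD5 and SMAD9, where it called 7.43% of the 20232 genes with an adjusted p lower. The smallest edgeR adjusted p of the 6 with all libraries was 0.165.

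Of 18 extracellular antagonists and latent binding proteins 17 were tested by edgeR, with a median of 0.15 for EX527 against co-culture that ran from -0.15 without EX527 replicate 2 to 0.41 without replicate 1. DESeq2 called 5 of the 18 higher and 2 lower, beside 6.65% and 4.73% of all genes. Its median over the 18, which include the gene that edgeR did not test, was 0.82, beside 0.23 over all genes. NOG, which encodes the BMP antagonist noggin and is named here after its values were seen, was read at 4.08 and 5.41 CPM with EX527, 0.18 and 0.123 CPM in co-culture and 2.26 CPM in monoculture. It had a log2 fold change of 4.95 for EX527 against co-culture (SE 0.53, edgeR adjusted p = 0.0768) and of -3.89 for co-culture against monoculture (SE 0.68, edgeR adjusted p = 0.124). Both values rest on co-culture levels close to the floor of 3 reads, which was 0.0674 and 0.0616 CPM in those libraries. FSTL3, which binds activins, was at 16.0 and 38.1 CPM with EX527 and 8.83 and 7.97 CPM in co-culture. LTBP1, which holds latent TGF-beta in the matrix, was at 36.6 and 44.3 CPM with EX527 and 84.8 and 84.7 CPM in co-culture, and the antagonist SOSTDC1 at 7.71 and 8.37 CPM with EX527 and 16.2 and 16.6 CPM in co-culture.

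Of 12 intracellular modulators DESeq2 called none, and their edgeR median was -0.14, and 0.05 without EX527 replicate 1. The deubiquitinase USP15 was at 79.3 and 81.8 CPM with EX527 and 53.9 and 57.5 CPM in co-culture, the ubiquitin ligase NEDD4L at 37.1 and 48.2 CPM with EX527 and 59.9 and 60.5 CPM in co-culture, and the SMAD corepressor SKIL at 65.4 and 81.8 CPM with EX527 and 93.4 and 95.9 CPM in co-culture. Of 11 further BMP targets DESeq2 called 3 higher and none lower (median 1.17, and 0.91 to 1.43 with 1 library left out), the Notch and BMP target genes HEY1 and HEY2 and the bone factor RUNX2. RUNX2 was read at 15.1 and 9.03 CPM with EX527, 4.52 and 4.15 CPM in co-culture and 13.7 CPM in monoculture. The homeobox gene MSX1, with the most reads of this list, was at 289 and 469 CPM with EX527, 728 and 623 CPM in co-culture and 373 CPM in monoculture, the same order as ID1 between EX527 and co-culture.

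Of 14 TGF-beta targets DESeq2 called 2 higher and 3 lower, beside 6.65% and 4.73% of all genes. The sign of their median turned on 1 library, at 0.55 with all 5 and -0.27 without EX527 replicate 2. TAGLN, an actin-binding protein, was at 13.0 and 15.3 CPM with EX527, 72.7 and 71.1 CPM in co-culture and 23.4 CPM in monoculture. The matrix cross-linker LOX was at 66.3 and 118 CPM with EX527, 18.7 and 19.4 CPM in co-culture and 125 CPM in monoculture, and the CDK inhibitor CDKN2B at 7.64 and 8.90 CPM with EX527, 2.97 and 3.28 CPM in co-culture and 15.0 CPM in monoculture. Of 10 bHLH genes, among them the E proteins that ID proteins bind, DESeq2 called 2 higher, TWIST1 and the blood-lineage gene TAL1 (median 0.86, and -0.01 without EX527 replicate 1). TAL1 is named here after its values were seen. TWIST1 was at 33.0 and 27.5 CPM with EX527 and 15.2 and 13.3 CPM in co-culture, HES1 at 69.7 and 63.7 CPM with EX527 and 102 and 94.6 CPM in co-culture, and the E protein TCF4 at 16.1 and 8.30 CPM with EX527 and 20.6 and 20.2 CPM in co-culture.

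**Figure D4:**
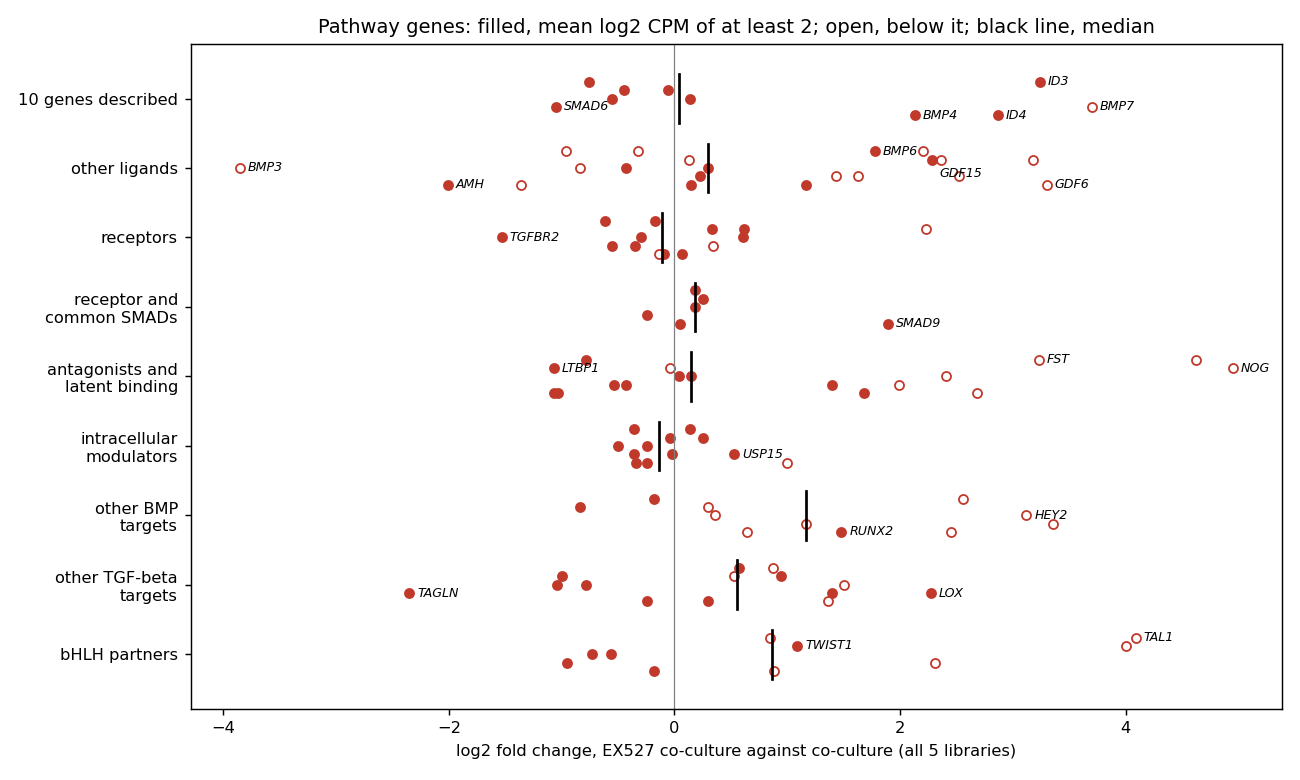
Log2 fold changes of EX527 co-culture against co-culture for the 10 genes and for the pathway lists, each point a tested gene, filled where its mean log2 CPM was at least 2, with the list's median as a black line. Genes of each list lie on both sides of 0, and NOG, close to the detection floor in co-culture, has the highest value, 4.95.

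Marker genes of 3 cell types moved between the groups too. The summed level of 10 adipocyte markers was 73.6 and 88.3 CPM with EX527, 41.8 and 42.6 CPM in co-culture and 124 CPM in monoculture, most of it from LPL and PPARG, while RETN had 0 reads in both co-culture libraries and the defining marker ADIPOQ was at 0.90 and 0.255 CPM, 0.0899 and 0.0205 CPM, and 0.0231 CPM. Monoculture held Ishikawa cells alone and still had the highest of these sums, so the sum is no count of adipocytes. The adipocyte list as a whole followed that order only in part. Against co-culture, 7 of its 10 genes had a positive log2 fold change with EX527 (median 1.29, beside 0.15 over all genes). Against monoculture, 7 of 10 were positive with EX527 (median 0.53) and 5 of 10 in co-culture (median 0.09). The sum of 10 fibroblast and preadipocyte markers was 113 and 271 CPM with EX527, 142 and 127 CPM in co-culture and 208 CPM in monoculture, with DCN and DLK1 each at 0 reads in 1 or more libraries. Between EX527 and co-culture, 8 of these 10 had a positive log2 fold change and 2 a negative one (median 1.94, beside 0.15 over all genes). Without EX527 replicate 1 the median was -0.57 over the 6 that were tested. The sum of the 8 epithelial markers was 1410 and 2370 CPM with EX527, 6230 and 5690 CPM in co-culture and 2300 CPM in monoculture. Of these 8, 6 had a negative log2 fold change with EX527 against co-culture and 2 a positive one (median -1). In bulk RNA, fewer cells of a type and less RNA per cell cannot be told apart, and the part of these shifts in the values of the ID, SMAD and ligand genes was not tested.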

How the data were processed

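RNA-seq counts of 5 libraries of Ishikawa cells were used. Poly(A) RNA was enriched from 500 ng of total RNA and amplified over 12 PCR cycles, and STAR v2 aligned the reads, less rRNA, to GRCh38.p7, per the labels and design text. The submitters' processing notes also name fastp and featureCounts. The authors deposited raw counts per gene; which annotation and strand setting they counted with is not given. Their second table, of scaled values, was not used. Genes were kept with filterByExpr (minimum count 10; 34658 of 57992 genes), scaled by TMM and tested in R 4.3.3 with edgeR 4.0.16 (quasi-likelihood F-test, newer dispersion estimate, 1 coefficient per group, 2 residual degrees of freedom), with Benjamini-Hochberg adjustment over all genes and a threshold of 0.05. DESeq2 1.42.0 was an alternative, as were other scalings, filters, dispersion estimates, fits with fewer libraries and a replicate block. The test was also run on simulated counts, and its outcome there is not reported here. The co-culture replicates were distinct beyond counting error (a chi-square of 5.95 on average in 26474 genes that had at least 20 reads). Members, lists and tests were chosen with earlier results of these data known. Named genes were the 10 members, SIRT1, and of each list up to 3 with the smallest p for EX527 against co-culture, a mean log2 CPM of at least 2 and libraries that do not overlap; NOG, HEY1, HEY2, TAL1, SMAD4 and SMAD5 were named after their values were seen. Positions and transcript lengths come from GENCODE 44, promoter windows from RefSeq.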

Additional observations from a re-analysis of the deposited data

How the results depend on the processing

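The count of genes called for EX527 co-culture against co-culture was 0 in the fit reported, 21 with the older dispersion estimate (1 of the 10 described genes, ID4), 859 with the replicate number as a block in the 4 co-culture libraries (3 of the 10) and 3444 with DESeq2 (5 of the 10). Leaving out 1 library gave 0 to 24074 genes and 0 to 8 of the 10. For co-culture against monoculture the count was 2452 with DESeq2 (4 of the 10), 15883 when only the libraries of both groups were fitted (8 of the 10), and 0 to 15859 with 1 library left out (0 to 8 of the 10). For EX527 co-culture against monoculture it was 59 with DESeq2 (1 of the 10) and 0 to 21328 with 1 library left out (0 to 8 of the 10). Leaving out either EX527 library gave the high counts, since replicate spread then came from co-culture alone, and leaving out either co-culture library gave 0. The labels do not say that same-numbered libraries shared a culture, so their numbers are not taken as pairs. Same-numbered libraries deviated from their group means with a correlation of -0.363 over 11232 genes. With 2 libraries in each co-culture group, that value cannot decide whether they were paired. Crossing the numbers, an alternative chosen after seeing the data, called 3382 genes (5 of the 10). Between EX527 co-culture and co-culture, fold changes changed sign for ID2 and SMAD7. ID2 was at 0.22 with library size alone. With 1 library left out it ran from -0.15 to 0.04, above 0 without co-culture replicate 1 or EX527 replicate 2. SMAD7 ran from -0.07 to 0.38 with 1 library left out, below 0 without EX527 replicate 2. BMP7 changed sign in co-culture without EX527 against monoculture (-1.01 to 0.53, above 0 without co-culture replicate 1). TGFB1 changed sign in EX527 co-culture against monoculture (-0.83 to 0.14, above 0 without EX527 replicate 1). The cause was not tested. The signs of ID3, ID4, BMP4, ID1, SMAD6 and TGFB2 held in all 3 comparisons under every alternative that gave them a value. Depth limits BMP7, with 4 to 25 reads in 4 of the 5 libraries.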
